A study of Mus musculus with 6 samples.

Results

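The genes described here encode 10 immediate early transcription factors of the AP-1 and EGR families: Fos, Fosb, Fosl2, Jun, Junb, Jund, Atf3, Egr1, Egr2 and Egr3. They were chosen by name, as all probe sets that the platform annotation assigns to one of these symbols alone. All 10 genes were found, with 15 probe sets among the 45101 on the array. A gene was read from its probe set of highest mean over the 6 arrays, called its main probe set. Of 18193 genes with a single symbol, 11254 passed a filter on dim signals and were tested, and 8 of the 10 genes were among them. Fosb and Egr2 fell below the filter and are given as values.

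Immediate early genes are transcribed within minutes of a stimulus from transcription factors already present in the cell, without new protein synthesis. FOS and JUN proteins pair through leucine zippers to form the dimer AP-1, which binds the TGA-containing AP-1 element. EGR proteins bind GC-rich elements through zinc fingers. In the heart both families are known for brief induction by stretch, by catecholamines and other agonists of G-protein-coupled receptors, and by ischaemia, and ERK, JNK and p38 kinases feed into them through the factors SRF, TCF and CREB.

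RNA came from hearts of male mice aged 2 months on a B6 background, and each of the 3 groups had 2 arrays. The mice labelled RKIP-transgenic expressed RKIP, a protein that binds RAF kinase and G-protein-coupled receptor kinases, from the alpha-MHC promoter, which is active in heart muscle cells. GRK-Inh-transgenic mice expressed a peptide that inhibits receptor kinases in the myocardium, with the promoter not named in the labels, and wild-type B6 mice were the controls. The labels describe 1 transgenic line of each kind, mention no treatment, and give no word on whether a group's arrays are separate animals, so p-values measure the spread between these samples, which may be technical. Whole heart tissue was used, so a change of a transcript per cell and a change in the share of cells that make it cannot be told apart.

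All 7 cardiomyocyte markers examined, among them Myh6 and Tnnt2, had signals of at least 9416 on every array, and all 6 skeletal muscle markers were below the filter. Pebp1, the mouse gene of RKIP, was not called in any comparison, with signals of 8766 to 9296 on the 6 arrays, which does not test a transgene that these probes may not see. The 3' to 5' signal ratio of the actin control probe sets was 2.92 to 3.03 on the transgenic arrays and 3.11 to 3.25 on the control arrays. Between the arrays of a group the SD of log2 differences over the tested genes was 0.206 to 0.209.

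Promoter sequence was taken from RefSeq (GRCm38.p6) for 4 of the genes that were called, to show which elements lie close to their start sites. Windows of 250 bases before to 50 after the start were searched, on both strands, for TGACG (the core of a CRE, the site of CREB and ATF factors), the full CRE TGACGTCA, which contains TGACG, the AP-1 element TGANTCA, the CRE-like elements TGACATCA and TTACCTCA, the EGR element GCGNGGGCG, TATAAA, and the CArG box bound by SRF. The lines below give the 200 bases before the start, 5′ to 3′ on the gene's strand, with matches in capitals. They lie at chr12:85473690-85473889 (plus strand) for Fos, chr4:95052223-95052422 (minus) for Jun, chr5:32136272-32136471 (plus) for Fosl2 and chr1:191183334-191183533 (minus) for Atf3.
Fos: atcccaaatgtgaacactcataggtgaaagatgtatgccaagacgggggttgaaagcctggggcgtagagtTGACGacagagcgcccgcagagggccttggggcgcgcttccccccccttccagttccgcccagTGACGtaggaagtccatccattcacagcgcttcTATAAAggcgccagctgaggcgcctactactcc
Jun: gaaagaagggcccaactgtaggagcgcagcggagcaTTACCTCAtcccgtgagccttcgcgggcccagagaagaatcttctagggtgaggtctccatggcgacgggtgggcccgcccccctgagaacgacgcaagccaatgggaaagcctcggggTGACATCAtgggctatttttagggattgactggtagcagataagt
Fosl2: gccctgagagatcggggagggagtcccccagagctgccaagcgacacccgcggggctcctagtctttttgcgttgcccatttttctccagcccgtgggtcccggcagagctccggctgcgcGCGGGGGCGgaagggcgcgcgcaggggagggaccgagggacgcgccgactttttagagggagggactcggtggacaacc
Atf3: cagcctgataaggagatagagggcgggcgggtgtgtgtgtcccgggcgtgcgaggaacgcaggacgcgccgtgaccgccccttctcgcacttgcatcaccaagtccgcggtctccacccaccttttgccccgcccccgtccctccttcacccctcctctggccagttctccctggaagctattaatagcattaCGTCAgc

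Fos held TGACG at positions -129 and -66 from its start and TATAAA at -33. Jun held TTACCTCA at -164 and TGACATCA at -45. The stretch of Fosl2 had a match to the EGR element at -79, and that of Atf3 had TGACG, read on the opposite strand, at -7. Of all 32851 promoter windows in the table, 20.8% held TGACG, 13.6% TATAAA, 5.55% the EGR element, 3.62% TGACATCA and 0.889% TTACCTCA. The CArG box was found in 1.63% of all windows. Among the 8 genes with a window used, it was found in 4 of the 5 alternative windows of Egr2. Jund held none of the elements. Egr1 and Egr3 had no window used and were not searched. Sites more than 250 bases before a start lay outside the windows, so a gene without a match may still hold the element further away. A match describes these letters and is not evidence of binding.

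In GRK-Inh-transgenic hearts 6 of the 8 tested genes rose against B6 control and none fell. Fos and Egr1 had the largest log2 fold changes, and Atf3, Jund, Jun and Fosl2 rose by less. Over all genes tested, 5.86% were called higher and 7.27% lower in this comparison, 13.1% in all. The median log2 fold change of the 8 genes was 0.70, against -0.03 over all genes tested. In RKIP-transgenic hearts Egr1 fell and the other 7 tested genes were not called, against a background of 5.32% called higher and 5.51% called lower, 10.8% in all. Here the median was -0.08, against -0.02 over all genes tested. Array ranges did not overlap those of control for 8 of the 8 genes in GRK-Inh hearts and for 3 of 8 in RKIP hearts. Over all genes tested the shares were 56.9% and 53.4%, so separate ranges are common with 2 arrays per group. Both comparisons use the same 2 control arrays. Calls are adjusted p-values under 0.05 from limma with Benjamini-Hochberg adjustment over the 11254 genes, and log2 fold changes refer to the signal plus 50.

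**Figure D1:**
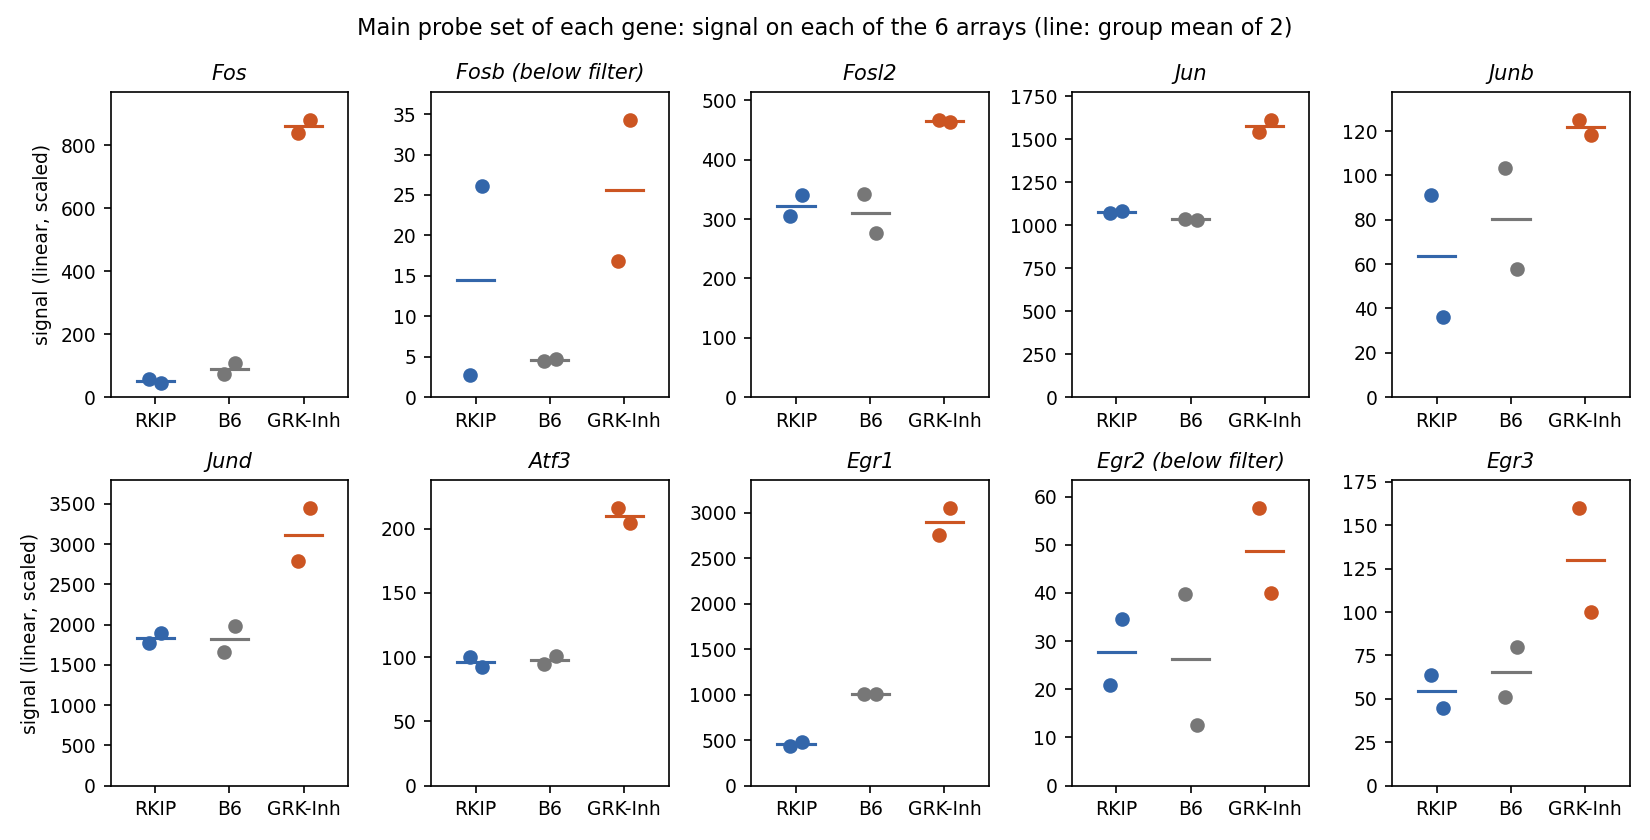
Signal (linear, scaled by the authors) of the main probe set of each of the 10 genes on each array; points are arrays, lines are group means of 2, and every vertical axis starts at 0. Fos lies at 838 and 880 on the GRK-Inh arrays and at or below 108 on the other arrays, while Egr1 differs between all 3 groups.

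Fos, the founding member of the FOS family, gave signals of 57.3 and 44.4 on the RKIP-transgenic arrays, 72.9 and 108 on the control arrays, and 838 and 880 on the GRK-Inh-transgenic arrays. The 3 groups did not overlap, and the GRK-Inh arrays stood far above the others. The mean rose 9.49 times on the signal scale, from 90.6 ± 24.95 to 859 ± 29.7 (SD, n = 2), and by 2.70 ± 0.15 (SE) on the log2 scale (limma adjusted p = 1.6e-06), the 3rd largest rise among all genes tested. The size of this log2 rise depended on the processing and ranged from 1.87 to 3.06 among the alternatives. Against control, the RKIP-transgenic value was -0.47 ± 0.15 (limma adjusted p = 0.0781) and was not called. The value was -0.21 with an offset of 200 and -0.29 without B6 control replicate 2, and without B6 control replicate 1 it was -0.65 and just reached the threshold (limma adjusted p = 0.05 after rounding). Between the lines Fos had the largest difference of all tested genes towards the GRK-Inh hearts, with a log2 fold change of -3.17 ± 0.15 for RKIP-transgenic over GRK-Inh-transgenic (limma adjusted p = 6.1e-07). With an offset of 200 the value was -2.08 and the difference ranked 4th, with Hspa1b first. The RKIP arrays of Fos lay close to the filter level of 50.2.

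Fosl2, which encodes the FOS-related protein FRA2, gave 304 and 340 in RKIP-transgenic, 342 and 277 in control and 467 and 464 in GRK-Inh-transgenic hearts. The GRK-Inh arrays lay above all others, and the RKIP and control ranges overlapped. It rose by 0.52 ± 0.12 in GRK-Inh hearts (limma adjusted p = 0.0123), but not without either GRK-Inh array, without control replicate 2 or when the variance was moderated with no trend (the adjusted p ranged from 0.00992 to 0.0938 among the alternatives). The RKIP-transgenic difference from control was 0.05, with a 95% interval of -0.20 to 0.31. Fosb, which encodes a further FOS family protein, was dim on every array, between 2.78 and 34.3, below the filter level. Its control arrays read 4.43 and 4.70 and its GRK-Inh arrays 16.9 and 34.3, while the RKIP arrays, at 2.78 and 26.1, spanned the control values. With no filter on dim genes its log2 fold change in GRK-Inh hearts was 0.46 ± 0.20 (limma adjusted p = 0.257).

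Jun, the main partner of FOS in AP-1, was nearly equal in RKIP-transgenic (1072 and 1085) and control hearts (1037 and 1033) and higher in GRK-Inh-transgenic hearts (1541 and 1614). All 3 ranges were separate, but the step from control to RKIP was small beside the step to GRK-Inh. Jun rose by 0.59 ± 0.063 in GRK-Inh hearts (limma adjusted p = 0.000158), and its RKIP value was 0.06 with a 95% interval of -0.08 to 0.20. Jund, a JUN protein that many resting cells also make, read 1778 and 1892 in RKIP-transgenic, 1657 and 1981 in control and 2792 and 3445 in GRK-Inh-transgenic hearts. The RKIP arrays lay inside the control range and both GRK-Inh arrays above it. Jund rose by 0.76 ± 0.10 (limma adjusted p = 0.000639). Its RKIP value was 0.02 with a 95% interval of -0.21 to 0.24.

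Junb, a JUN protein that can act against JUN, was dim and scattered, with 91.0 and 35.9 in RKIP-transgenic, 103 and 57.7 in control and 125 and 118 in GRK-Inh-transgenic hearts. The GRK-Inh arrays were the highest, but the other groups spread widely. Its log2 fold change in GRK-Inh hearts was 0.42 with a 95% interval of -0.13 to 0.97 (limma adjusted p = 0.305), so a rise as large as that of Jund lies within the interval. Among the alternatives it ranged from 0.16 to 0.67. Atf3, a stress-induced factor of the ATF family that can pair with JUN proteins, gave 100.3 and 92.5 in RKIP-transgenic and 94.5 and 101 in control hearts. On the GRK-Inh arrays it read 216 and 204, above every other array. Atf3 rose by 0.82 ± 0.14 (limma adjusted p = 0.00323), a size that depended on the offset and was 0.46 with an offset of 200. Its RKIP value was -0.01 with a 95% interval of -0.33 to 0.30, and turned to 0.01 with quantile normalization.

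**Figure D2:**
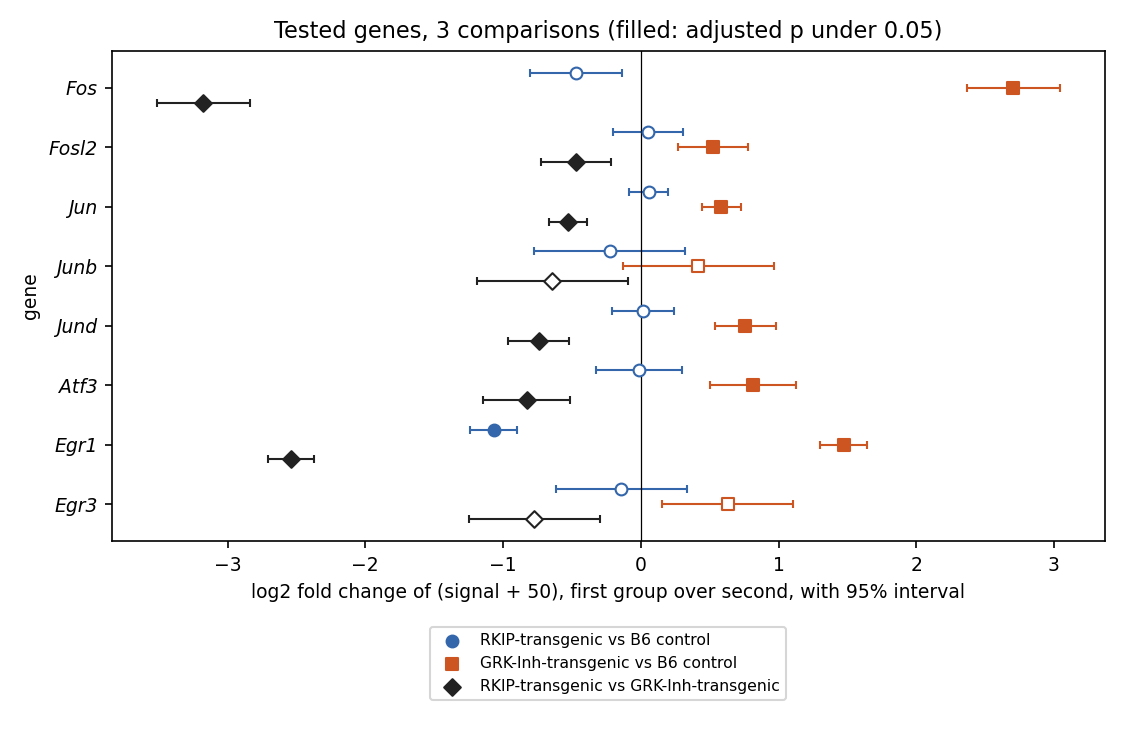
Log2 fold change of the signal plus 50 for the 8 tested genes in the 3 comparisons, with 95% intervals from the limma model; filled symbols are adjusted p under 0.05. In the GRK-Inh comparison every estimate lies above 0, from 0.42 for Junb to 2.70 for Fos, and in the RKIP comparison Egr1 at -1.07 is the one filled symbol.

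Egr1, a zinc finger factor induced by ERK signalling through SRF and TCF, was the gene that separated all 3 groups by called differences. It gave 434 and 480 in RKIP-transgenic, 1011 and 1013 in control and 2751 and 3050 in GRK-Inh-transgenic hearts. The order was RKIP below control below GRK-Inh on every array. From a control mean of 1012 ± 1.20 (SD, n = 2) it fell to 457 ± 32.3 in RKIP-transgenic hearts, a log2 fold change of -1.07 ± 0.076 (limma adjusted p = 1.29e-05), the 18th largest fall among the genes tested. In GRK-Inh-transgenic hearts it rose to 2900 ± 212, a log2 fold change of 1.47 ± 0.076 (limma adjusted p = 7.33e-07), the 13th largest rise. The lines themselves differed by -2.54 ± 0.076 for RKIP-transgenic over GRK-Inh-transgenic (limma adjusted p = 1.64e-08). All 3 calls of Egr1 were kept under each of the 17 alternatives.

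Egr2 and Egr3, its relatives with similar zinc fingers, had signals near the filter level and neither was called. Egr3 read 63.9 and 44.8 in RKIP-transgenic, 51.3 and 79.6 in control and 160 and 100.3 in GRK-Inh-transgenic hearts. The GRK-Inh arrays were the highest, while the RKIP and control ranges overlapped. Its log2 fold change in GRK-Inh hearts was 0.63 ± 0.22 (limma adjusted p = 0.0804). It was 0.31 with an offset of 200 and 0.39 without GRK-Inh replicate 1, and was not called under any alternative. The value between the lines was -0.77 ± 0.22 (limma adjusted p = 0.0504), which passed under 5 of 16 alternatives: quantile or median normalization, an offset of 200, robust moderation, and without GRK-Inh replicate 2 (adjusted p 0.0402 to 0.300). The main probe set of Egr2 read 20.9 and 34.5 in RKIP-transgenic, 39.9 and 12.6 in control and 57.6 and 39.9 in GRK-Inh-transgenic hearts. On these arrays the lower GRK-Inh value and the higher control value were nearly the same, and with no filter the log2 fold change was 0.39 ± 0.22 (limma adjusted p = 0.389).

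Directly between the transgenic lines, 6 of the 8 genes (Fos, Egr1, Atf3, Jund, Jun and Fosl2) were called lower on the RKIP side and none was higher. Of all genes tested, 4.35% were called lower and 4.47% higher, 8.82% in all. Jund (-0.74 ± 0.10, limma adjusted p = 0.00123), Atf3 (-0.83 ± 0.14, limma adjusted p = 0.00495, and -0.47 with an offset of 200) and Jun (-0.53 ± 0.063, limma adjusted p = 0.000575) stood between Fos and Fosl2 (-0.47 ± 0.12, limma adjusted p = 0.0306). Moderation with no trend ended the call of Jund (adjusted p = 0.0580). The call of Fosl2 ended with no filter, with no trend and without any one of the RKIP or GRK-Inh arrays (adjusted p from 0.0250 to 0.156). Junb was not called (-0.64 ± 0.25, limma adjusted p = 0.149) but passed without RKIP replicate 1, at -0.998. All 8 genes had GRK-Inh arrays that did not overlap the RKIP arrays, as did 52.9% of all genes tested.

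For 5 of the genes a second probe set gave another reading. The second probe set of Jun repeated the first: it read 783 and 744 in RKIP-transgenic, 748 and 755 in control and 1016 and 1145 in GRK-Inh-transgenic hearts. With every probe set tested it rose by 0.49 ± 0.074 in GRK-Inh hearts (limma adjusted p = 0.0113). The second of Fosl2, with signals of 47.2 to 85.2, did not show a called rise (0.20 ± 0.22, limma adjusted p = 0.752). The second of Jund was near the bottom of the scale, at 3.03 to 31.6, and its log2 fold change was -0.07 ± 0.18. Egr2 was again highest on the GRK-Inh arrays, at 57.5 and 46.4 against 6.02 to 21.9 on the other arrays (0.68 ± 0.18, limma adjusted p = 0.109). Egr3 disagreed, since its dimmer probe set read 38.7 and 19.5 in GRK-Inh-transgenic and 44.2 and 51.7 in control hearts (-0.32 ± 0.20, limma adjusted p = 0.522).

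**Figure D3:**
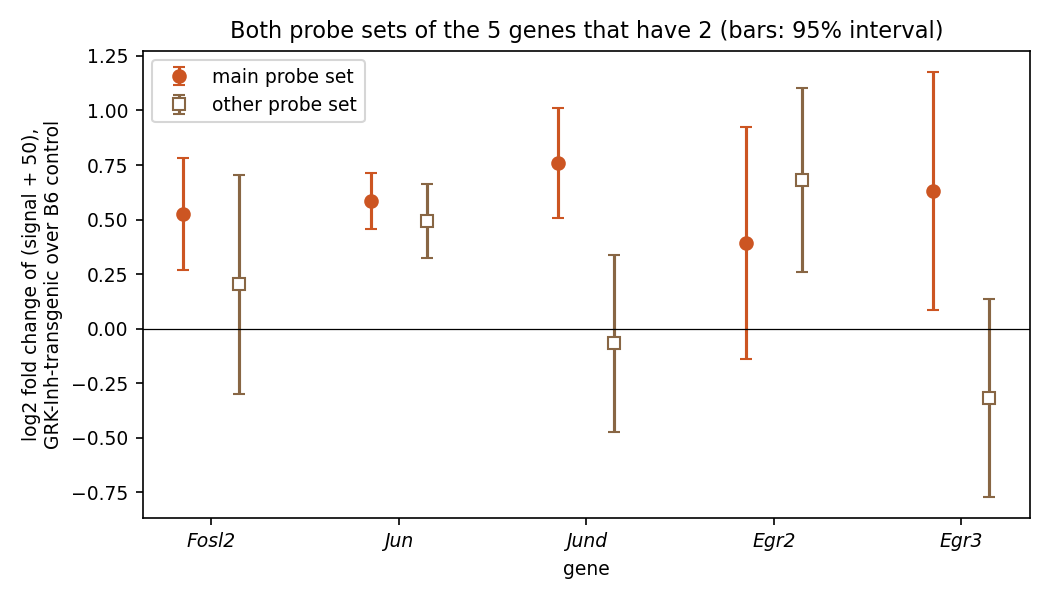
Log2 fold change (signal plus 50) of GRK-Inh-transgenic over B6 control for both probe sets of the 5 genes that have 2, with 95% intervals, from a fit over all probe sets. The probe sets of Jun lie close together at 0.59 and 0.49, and those of Egr3 have opposite signs, at 0.63 and -0.32.

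Genes around these factors were examined by role. Of the other AP-1 family and partner genes, 11 of 12 had a probe set and 9 were tested: 2 rose in GRK-Inh hearts, none fell, and none was called in RKIP hearts. The 2 were Mafk (0.45 ± 0.11, limma adjusted p = 0.0204) and Mafg (0.33 ± 0.096, limma adjusted p = 0.0475), which encode small MAF proteins. Mafk lost its call with no trend and without GRK-Inh replicate 1 or either control array, and Mafg lost its call under 11 of the 17 alternatives, among them GRK-Inh replicate 2 or any RKIP or control array left out. Of the EGR partners Egr4, Nab1 and Nab2, 2 were tested and neither was called. Of 10 tested genes for the regulators SRF, TCF and CREB and their cofactors, 1 rose and 1 fell in GRK-Inh hearts and 2 fell in RKIP hearts. Elk3, a TCF that can repress, fell in both, by 0.46 in GRK-Inh and by 0.61 on the log2 scale in RKIP hearts. Creb1 rose by 0.29 ± 0.075 in GRK-Inh hearts (limma adjusted p = 0.0275), and the LIM protein gene Fhl2 fell in RKIP hearts (-0.34 ± 0.057, limma adjusted p = 0.00386). Moderation with no trend ended each of these calls of Elk3, Creb1 and Fhl2. In GRK-Inh hearts the calls of Elk3 and Creb1 also ended without either control array, and without GRK-Inh replicate 1 for Elk3 or 2 for Creb1, and that of Creb1 with no filter.

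Of 13 MAP kinase pathway genes, 9 were tested: none was called in GRK-Inh hearts and 1, the RSK kinase gene Rps6ka3, fell in RKIP hearts (-0.29 ± 0.060, limma adjusted p = 0.0123), a call lost with no trend and without any one of the 4 arrays compared. These are transcript levels and say nothing of kinase activity. Of 16 genes described elsewhere as AP-1 or EGR targets, 10 were tested: 1 rose in GRK-Inh hearts and none was called in RKIP hearts. It was the protease gene Mmp3, at 98.0 in control and 180 in GRK-Inh hearts (0.64 ± 0.15, limma adjusted p = 0.0191), a call lost with no filter and without either GRK-Inh array or control replicate 2 (adjusted p from 0.0150 to 0.119), and a size that was 0.35 with an offset of 200. The 10 genes had a median of 0.03 in GRK-Inh and 0.02 in RKIP hearts, beside -0.03 and -0.02 over all genes.

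**Figure D4:**
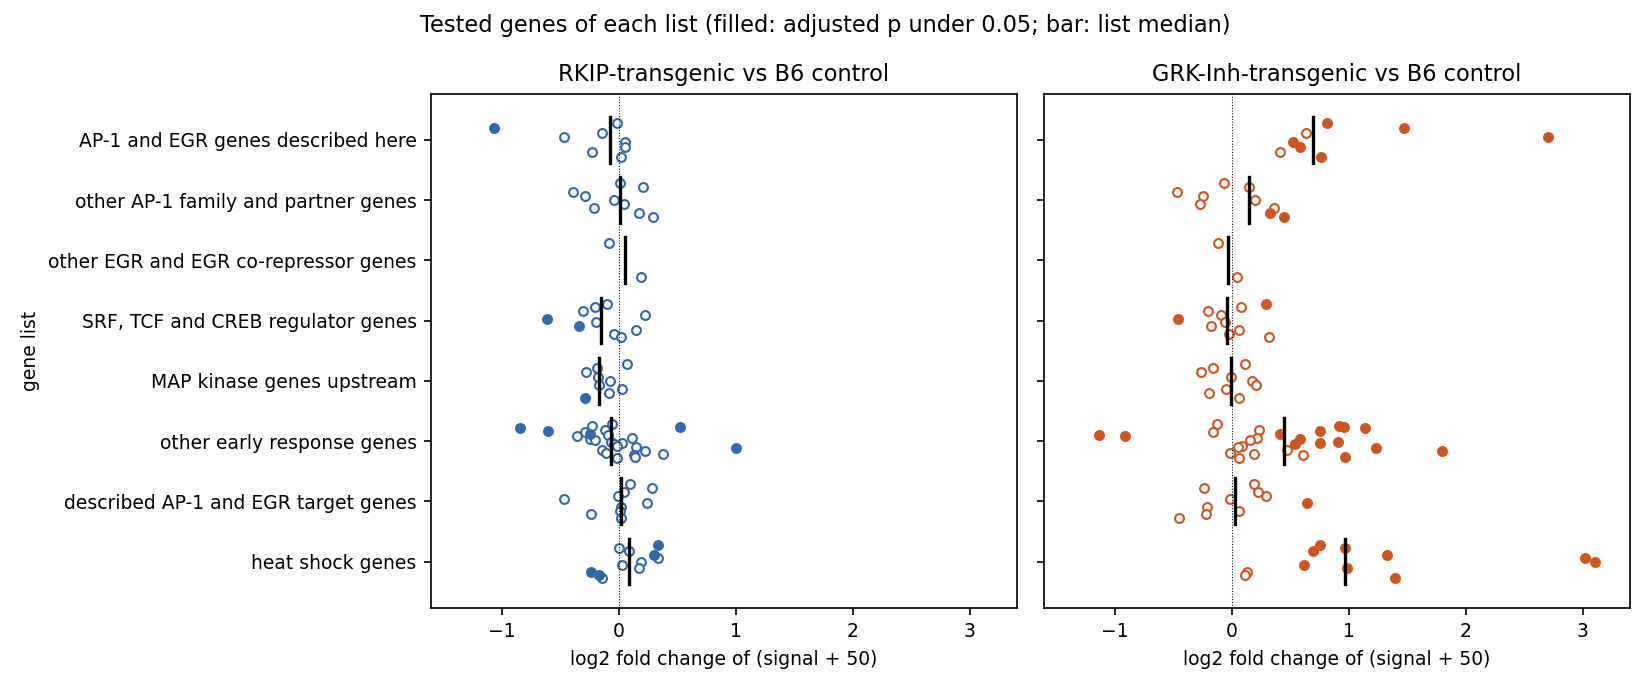
Log2 fold change (signal plus 50) of each tested gene, by list, in both transgenic lines against B6 control; filled points are adjusted p under 0.05 and black bars are list medians. In GRK-Inh hearts the medians of the AP-1 and EGR genes (0.70), other early response genes (0.44) and heat shock genes (0.97) lie to the right, and in RKIP hearts the medians of the 8 lists plotted lie between -0.17 and 0.08.

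Many other early response genes rose in GRK-Inh hearts. Of 30, 26 were tested, and in GRK-Inh hearts 12 rose and 2 fell (median 0.44), while in RKIP hearts 2 rose and 3 fell (median -0.06). In GRK-Inh hearts the nuclear receptor gene Nr4a3 rose by 1.79 ± 0.19 (0.99 with an offset of 200), Nr4a1 by 1.23 ± 0.13 (0.82 with an offset of 200) and Ccn2, which encodes a matricellular growth factor, by 1.14 ± 0.047. The growth arrest gene Gadd45a went the other way, from 868 in control to 367 in GRK-Inh hearts (-1.14 ± 0.090, limma adjusted p = 1.63e-05). In RKIP hearts Ccn2 (-0.84 ± 0.047) and Dusp1 (-0.61 ± 0.071), the gene of a MAP kinase phosphatase, fell beside Egr1, whereas Nr4a1 rose by 1.00 ± 0.13 (0.65 with an offset of 200) and Ccn1 by 0.52 ± 0.11. Nr4a1 went from 149 in control to 347 in RKIP and 415 in GRK-Inh hearts. The call of Ccn1 in RKIP hearts was lost with no trend and without RKIP replicate 2 (0.33) or either control array.

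Heat shock genes moved with the AP-1 and EGR genes in GRK-Inh hearts. Of 11 tested, 9 rose and none fell, with a median of 0.97, and Hspa1b went from 326 to 3186 and Hspa1a from 148 to 1551 (near-identical paralogs whose probe sets may share signal). The summed signal of the list was 78278 and 79286 on the GRK-Inh arrays and 47063 to 48663 on the other 4 arrays. In RKIP hearts 2 rose and 2 fell, and the median was 0.08. Moderation with no trend left none of these RKIP calls and 9 genes called higher in GRK-Inh hearts. Whether the rises of both lists have a common source was not tested.

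Markers of other cell types differed between groups as well. Fibroblast markers fell in both lines, 6 of 6 in GRK-Inh and 5 of 6 in RKIP hearts, with summed signals of 27136 to 27872 and 29941 to 30104 against 36188 to 37568 in control. Smooth muscle and pericyte markers fell in 3 of 6 and 5 of 6, endothelial markers in 2 of 6 and 2 of 6, and macrophage markers in 3 of 6 and 1 of 6, in GRK-Inh and RKIP hearts respectively, and none of these was called higher. Many of these calls were close to the threshold: moderation with no trend left 4 and 3 fibroblast, 1 and 1 smooth muscle, 1 and 0 endothelial, and 2 and 0 macrophage markers called lower in GRK-Inh and RKIP hearts. With 1 array left out the lowest counts were 4 and 3, 2 and 2, 0 and 0, and 2 and 0. Adgre1 in GRK-Inh hearts was called under 2 of the 17 alternatives and Pdgfrb in RKIP hearts under 6. In GRK-Inh hearts 3 of 6 endothelial estimates were positive, among them Pecam1 (0.29) and Kdr (0.22), as was 1 of 6 smooth muscle estimates. Kdr was called higher there under 2 of the 17 alternatives. In RKIP hearts 1 of 6 macrophage estimates was positive. The lists' summed signals in GRK-Inh, RKIP and control hearts were 23726 to 23989, 22976 to 23212 and 27642 to 28436 for smooth muscle, 4987 to 5040, 4388 to 4464 and 5276 to 5369 for endothelium, and 6338 to 6369, 7379 to 7482 and 8172 to 8484 for macrophages. The lymphocyte list summed to 933 to 950 in GRK-Inh, 179 to 202 in RKIP and 258 to 283 in control hearts. Ighm was the 1 tested gene of 5, and the other 4 were below the filter. Ighm alone read 848 and 837 in GRK-Inh, 109 and 103 in RKIP and 188 and 156 in control hearts, so these sums are mostly 1 gene. It was called higher in GRK-Inh hearts (2.01, limma adjusted p = 2e-06) and lower in RKIP hearts (-0.51, limma adjusted p = 0.0192). The RKIP call was lost with no filter, with no trend, with only the compared arrays, and without either RKIP array or control replicate 1. The RKIP value of Ighm ranged from -0.62 to -0.28 among the alternatives. All 4 neutrophil markers with a probe set were below the filter. White adipocyte markers summed to 131 to 152 in RKIP, 352 to 525 in GRK-Inh and 365 to 393 in control hearts, with 1 of 2 tested genes, Adipoq, lower in RKIP hearts. What part these cell types had in the levels of the AP-1 and EGR genes was not tested.

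The genes most like Fos and Egr1 were ranked by Pearson's r of log2 values over the 6 arrays, among 358 tested genes outside the families with a range of at least 1. These r values are descriptive, since the arrays form 3 groups. For Fos they were the collagen hydroxylase gene P4ha1 (r = 0.995), the kinase gene Sgk1 (0.994), the chaperone gene Hsph1 (0.992), the immunoglobulin gene Ighm (0.990) and Noct (0.987). Sgk1 read 1557 and 1692 in RKIP-transgenic, 1742 and 1894 in control and 3629 and 3727 in GRK-Inh-transgenic hearts, high in GRK-Inh alone as was Fos. For Egr1 they were Ccn2 (0.998), the desaturase gene Scd1 (0.992), Dusp1 (0.986), Slc5a3 (0.979) and Bcl6 (0.973). Ccn2 followed Egr1 in order, with 1901 and 1846 in RKIP-transgenic, 3404 and 3396 in control and 7427 and 7676 in GRK-Inh-transgenic hearts. Scd1 and Dusp1 also fell in RKIP hearts and rose in GRK-Inh hearts (Scd1 by -0.63 and 1.02, Dusp1 by -0.61 and 0.76 on the log2 scale), while Slc5a3 and Bcl6 rose in GRK-Inh hearts and were not called in RKIP hearts (limma adjusted p = 0.117 and 0.0516).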

How the data were processed

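Heart RNA of 6 mouse samples was measured on Affymetrix mouse arrays. The authors deposited one linear intensity per probe set and array, computed with GCOS (no version given) per the submitters' processing notes. The deposited intensities had a 2% trimmed mean of 300.002 on every array. No detection calls were used here, so dimness was judged by level. With 6 arrays and no counts, precision is limited by the number of arrays, and the SE of a log2 fold change had a median of 0.115. Groups and replicate numbers came from the sample titles.

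Of 45101 probe sets, 64 controls were set aside. The platform annotation gave 34945 a single symbol, 932 several and 9160 none, and 34754 identifiers matched RefSeq. Signals were transformed as log2(signal + 50) without further normalization. Genes whose main probe set had a mean log2 value of at least 6.65, the median of all but the controls (equal to a signal of 50.2), were tested with limma 3.58.1 in R 4.3.3. One model covered the 6 arrays (3 residual and 7.60 prior degrees of freedom, variances moderated along a trend, two-sided, Benjamini-Hochberg over 11254 genes, threshold 0.05). The procedure was tested on simulated data.

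The genes, lists and tests were chosen with earlier results of these data known. Named were the 10 genes, up to 4 called genes of each other list and comparison (up to 2 of highest mean where none was called), and the 5 genes most like Fos and Egr1. Listed genes without a probe set in the annotation were not analysed here. Alternatives were quantile or median normalization, offsets of 16 and 200, no filter or the 75th percentile, all probe sets, no trend, robust moderation, only the compared arrays, a replicate block, and each array left out. Figures used Python 3.11.15 and matplotlib 3.10.9.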

Additional observations from a re-analysis of the deposited data

Results flagged for a closer look

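For 6 of the tested genes the change from control differed between the transgenic lines, by the limma test of RKIP-transgenic against GRK-Inh-transgenic hearts. Egr1 changed in opposite directions and differed by -2.54 on the log2 scale. The others were called in GRK-Inh hearts but not in RKIP hearts, and differed by -3.17 (Fos), -0.47 (Fosl2), -0.53 (Jun), -0.74 (Jund) and -0.83 (Atf3).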

How the results depend on the processing

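Over the 17 alternatives, 5 of the 6 rises in GRK-Inh hearts kept their call wherever the gene was tested, the exception being Fosl2, as did the fall of Egr1 in RKIP hearts. A filter at the 75th percentile left Fos and Atf3 untested. In the GRK-Inh comparison 1477 genes were called, 2324 with all probe sets tested, 731 with a variance without trend and 898 to 1486 with 1 array left out. In the RKIP comparison 1219 became 297 with that variance and 612 to 1119 with 1 array left out, where the AP-1 and EGR genes called lower numbered 1 to 2. Between the lines 993 became 617 with no filter, 255 with that variance and 467 to 875 with 1 array left out. Leaving out any array leaves fewer residual degrees of freedom. Leaving out an array of a compared group also leaves that group with 1 array. The causes of these shifts were not tested. Only values that were not called changed sign, 45 in all among the genes named by the rule. In RKIP hearts these were, with 1 array left out, Atf3 (-0.051 to 0.025), Egr3 (-0.32 to 0.036), Fosl2 (-0.077 to 0.18), Junb (-0.58 to 0.13), Jund (-0.11 to 0.14), Atf2 (-0.0097 to 0.036), Maf (-0.12 to 0.21), Mapk10 (-0.19 to 0.046), Mrc1 (-0.098 to 0.020), Nr4a3 (-0.017 to 0.47), Pdgfa (-0.051 to 0.086) and Pecam1 (-0.16 to 0.0052), while quantile normalization gave 0.0053 for Atf3 and -0.0045 for Atf2. In GRK-Inh hearts they were Adipoq (-0.16 to 0.48), Nab2 (-0.062 to 0.16), Retn (-0.079 to 0.091), Tagln (-0.12 to 0.012) and Tnnt2 (-0.088 to 0.00014), and Tnnt2 was 0.037 with quantile and 0.00075 with median normalization. Between the lines they were Ccnd1 (-0.21 to 0.018), Col1a1 (-0.11 to 0.14), Fbln1 (-0.055 to 0.040), Myh6 (-0.026 to 0.045), Nab1 (-0.016 to 0.072) and Pdgfra (-0.081 to 0.10). There quantile normalization gave 0.0013 for Fbln1, -0.031 for Myh6 and -0.0090 for Rgs5, and median normalization -0.026 for Col1a1, -0.030 for Myh6, -0.011 for Nab1, -0.030 for Pdgfra and -0.025 for Rgs5. The replicate number as a block gave 1434, 1150 and 905 called genes in the GRK-Inh, RKIP and between-line comparisons, and the same numbers of AP-1 and EGR genes called (6, 1 and 6). Same-numbered arrays did not deviate together (correlations of -0.035 to 0.026 over genes). This shows no shared deviation, but it cannot tell whether same-numbered samples were collected or processed together. Signals near or below 50.2 (Fosb, Egr2, Egr3, Junb, and Fos in RKIP hearts) limit what can be seen of these genes.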
